A study of Mus musculus with 12 samples.

Results

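The ELOVL family comprises the fatty acid elongases of the endoplasmic reticulum, encoded in the mouse by *Elovl1* to *Elovl7*. Their members were taken as the probe sets whose single gene symbol was 1 of these 7 names, which gave 7 of the 41345 probe sets on the array, 1 for each gene, and 7 of the 22180 genes with a symbol of their own. The probe sets were 17417767 for *Elovl1*, 17292058 for *Elovl2*, 17359918 for *Elovl3*, 17529307 for *Elovl4*, 17519598 for *Elovl5*, 17402558 for *Elovl6* and 17289717 for *Elovl7*. RNA came from subcutaneous inguinal white adipose tissue (WAT) dissected after death from 12 male mice aged 12 weeks. Of these, 6 were R6/2 mice, a transgenic Huntington's disease model in which a fragment of human huntingtin (its exon 1) bears an expanded CAG repeat, and 6 were wild type (WT) littermates on the C57BL/6 background. Each mouse had 1 Affymetrix Mouse Gene 2.0 ST array, and mice of both genotypes were housed under standard conditions without treatment. The values are log2 signals, so that 1 unit stands for 2-fold, and a signal of 1 probe set cannot be set against that of another because probes differ in brightness.

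Elongases lengthen fatty acids bound to coenzyme A. The elongase condenses the acyl chain with malonyl-CoA, and a ketoreductase, a dehydratase and an enoyl reductase then complete the cycle, so that the chain leaves longer than it entered. The members differ in the chains they accept. ELOVL6 turns palmitate into stearate and belongs to the lipogenic programme. ELOVL1, ELOVL3 and ELOVL7 act on saturated and monounsaturated chains, ELOVL2 and ELOVL5 on polyunsaturated ones, and ELOVL4 makes the very longest chains of retina, brain and skin. *Elovl3* is known in the mouse as a gene of brown adipose tissue that responds strongly to cold, and also of the sebaceous gland. The comparison therefore asks how elongation genes stood in a WAT depot examined for brown features.

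The promoter windows of the members most relevant to the results were read from RefSeq (mouse build GRCm38.p6), which held a window for 6 of the 7 *Elovl* genes. *Elovl3* had none in the table used. The stretches below are the 250 bases before the start site of *Elovl6*, of *Insig1*, the gene whose signal followed *Elovl6* most closely over the 12 mice, and of *Elovl5*, a further elongase whose signal followed *Elovl6* less closely (r = 0.510). They are on the plus strand at chr3:129532136-129532385, chr5:28071162-28071411 and chr9:77917115-77917364, and capitals mark every match to the motifs searched.
Elovl6: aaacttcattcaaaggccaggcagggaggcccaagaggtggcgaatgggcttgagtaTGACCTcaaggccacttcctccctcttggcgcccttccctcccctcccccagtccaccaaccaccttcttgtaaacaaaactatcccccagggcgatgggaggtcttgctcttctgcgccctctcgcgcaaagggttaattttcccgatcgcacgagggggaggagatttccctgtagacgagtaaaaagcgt
Insig1: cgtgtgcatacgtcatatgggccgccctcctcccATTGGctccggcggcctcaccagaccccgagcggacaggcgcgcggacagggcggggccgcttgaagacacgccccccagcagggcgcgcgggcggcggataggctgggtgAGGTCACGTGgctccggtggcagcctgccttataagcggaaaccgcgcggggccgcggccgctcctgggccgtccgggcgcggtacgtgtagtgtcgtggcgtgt
Elovl5: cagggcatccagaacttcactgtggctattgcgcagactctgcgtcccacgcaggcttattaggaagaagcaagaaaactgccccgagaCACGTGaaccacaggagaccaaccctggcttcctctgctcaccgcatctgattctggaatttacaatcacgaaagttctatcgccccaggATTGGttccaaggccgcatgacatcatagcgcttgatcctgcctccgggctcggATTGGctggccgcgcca
The motifs were AGGTCA (a nuclear receptor half-site), CACGTG (an E-box), CCAAT, TGACGTCA (a cAMP response element) and TCACNCCAC (the core of a sterol response element), searched on both strands. The *Elovl6* window held 1 AGGTCA on the minus strand, 193 to 188 bases before the start. The *Insig1* window held an AGGTCA at 105 to 100 bases before the start, an overlapping CACGTG at 101 to 96 and a CCAAT on the minus strand at 216 to 212. The *Elovl5* window held a CACGTG at 161 to 156 and a CCAAT on the minus strand at 71 to 67 and at 17 to 13. Over all 32851 windows of the same length, AGGTCA occurred in 14%, CACGTG in 6.02%, CCAAT in 33.8%, TGACGTCA in 1.55% and TCACNCCAC in 1.05%. The windows of *Elovl2*, *Elovl4* and *Elovl7* matched none of the motifs, and each of the windows of *Elovl1* held 1 match.

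The arrays were alike in scale, with medians between 5.75 and 5.87 and correlations between arrays from 0.916 to 0.987. The 18 mature adipocyte genes measured had a mean of 10.68 to 11.60 in WT and 10.78 to 11.54 in R6/2 mice. No other tissue was among the arrays, so the tissue label was not tested. The tissue samples differed in the other tissue they held. A mean over 13 lymphocyte and lymph node genes lay at 5.64 to 5.68 in WT mouse 4 and R6/2 mice 3 and 4, and at 8.17 to 10.38 in the other 9 mice. A mean over 18 skeletal muscle genes lay at 5.81 to 5.99 in 5 mice, of which 4 were WT, and at 7.22 to 10.55 in the other 7. Across the 14550 genes whose signal passed the level filter, limma called none between genotypes at an adjusted p under 0.05, while 850 had an unadjusted p under 0.05 and SAM, the method of the study, called 85 at a q under 5%.

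Elongation genes differed between genotypes mainly in *Elovl3*, which was 5.04-fold higher in R6/2 than in WT mice with wide spread in both. *Elovl6* and *Elovl5* were 1.41- and 1.06-fold higher, and *Elovl1* and *Elovl2* 1.14- and 1.03-fold lower. Of the 5 members that passed the level filter, 0 passed an adjusted p of 0.05 in limma, against a background of 0% of the 14550 genes. At an unadjusted p under 0.05, *Elovl3* was the only member, against 5.84% of genes, 2.53% with a higher and 3.31% with a lower mean in R6/2 mice. SAM called 0 of the 5 at a q under 5%, against 0.584% of genes, 0.0275% higher and 0.557% lower. In no member did the genotypes separate fully, which they did in 0.385% of genes, 0.199% with R6/2 mice on top and 0.186% with WT mice on top.

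**Figure D1:**
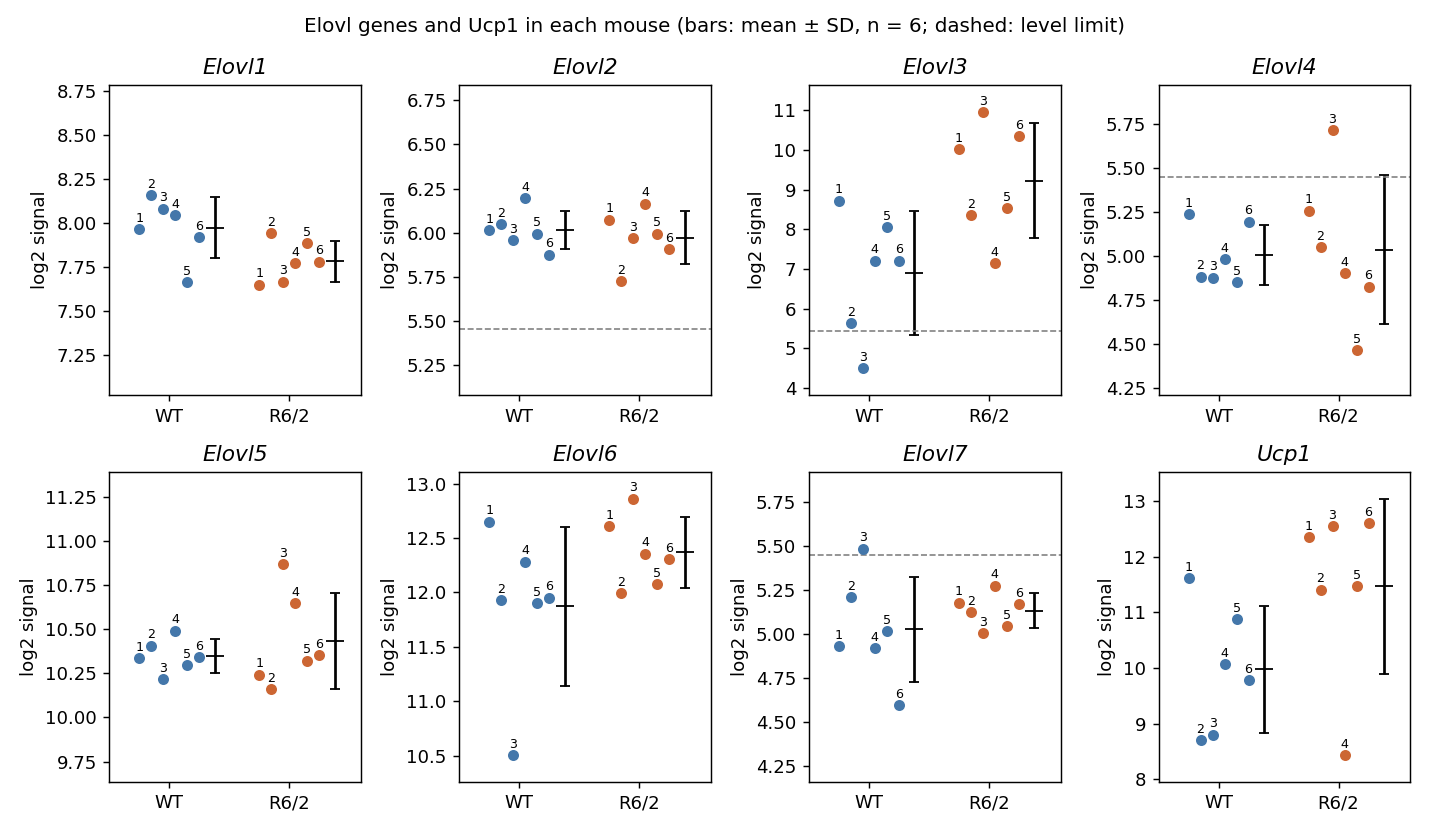
Log2 signal (vertical axes, each panel on its own scale) of the 7 *Elovl* genes and *Ucp1* in the 6 WT and 6 R6/2 mice. Points are mice with their replicate number, bars are mean ± SD (n = 6) and dashed lines the level limit. *Elovl3* and *Ucp1* spread over several log2 units in both genotypes, whereas *Elovl1*, *Elovl2* and *Elovl5* hold within 1 unit.

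*Elovl3*, the elongase of brown adipose tissue, had a lowest, median and highest signal of 4.51, 7.21 and 8.72 in WT mice. In R6/2 mice the same values were 7.15, 9.28 and 10.96. The groups overlapped: R6/2 mice 1, 3 and 6, at 10.02, 10.96 and 10.34, lay above every WT mouse, and WT mice 2 and 3, at 5.65 and 4.51, lay below every R6/2 mouse. WT mouse 3 was under the level limit of 5.45, and the other 11 arrays were above it. The means were 6.90 ± 1.56 in WT and 9.23 ± 1.45 in R6/2 mice (SD, n = 6), a difference of 2.33 on the log2 scale (SE 0.78, 95% confidence interval 0.64 to 4.03), or 1.56- to 16.3-fold. The exact permutation test over mice, two-sided, gave p = 0.0281, whereas the adjusted p over all genes was 0.710 in limma and the q was 22.8% in SAM. Leaving out single mice kept the difference between 1.86 and 2.75, but the exact permutation p rose to 0.0541 without WT mouse 3 and to 0.0563 without R6/2 mouse 1, 3 or 6.

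The spread of *Elovl3* within a genotype was large for this tissue. Its pooled SD was 1.50 against a median gene's 0.210, larger than that of 99.3% of genes. *Elovl6* stood next among the members, with a pooled SD of 0.564 that exceeded 92.7% of genes. *Elovl5*, *Elovl1* and *Elovl2* had SDs of 0.203, 0.148 and 0.131, at or under the median gene.

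*Elovl3* moved across the 12 mice with the genes listed for the thermogenic adipocyte. Over the mean of 17 such genes, which leaves out *Elovl3* itself, Pearson's r was 0.957 (permutation p = 1e-05, the smallest that 100000 resamples can give, adjusted p = 0.00015) and Spearman's rho was 0.944 (permutation p = 3e-05, adjusted p = 0.00045). The relation held at r = 0.946 within WT and at r = 0.989 within R6/2 mice, and r was 0.947 without R6/2 mouse 3 and WT mouse 2, the mice farthest from the median. A total of 15 relations of members with list means was computed, over which these p-values were adjusted. The permutations did not keep mice within their genotype, and the thermogenic list was chosen with earlier results of these arrays known. WT mice 1 and 5 and R6/2 mice 3 and 6 were the highest of their genotype in both the thermogenic and the muscle mean. R6/2 mouse 2 was lowest of its genotype in the muscle mean, but R6/2 mouse 4 in the thermogenic mean. The part of muscle RNA in the thermogenic mean was not tested.

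In the thermogenic list, 14 of 17 genes had a higher mean in R6/2 mice and 3 a lower one, with a median difference of 0.44 against 0.01 over all genes, of which 54.2% were higher. The count was the same without any single mouse, and the median fell to 0.25 when WT mouse 3 was left out, to 0.28 when WT mouse 2 was, and to 0.26 when R6/2 mouse 3 was. None passed the adjusted p in limma, and against 5.84% of all genes 3 had an unadjusted p under 0.05. These were *Pank1*, a pantothenate kinase of coenzyme A synthesis, at 0.94 (SE 0.35), *Letmd1*, a mitochondrial gene of brown adipocytes, at 0.62 (SE 0.25), and *Ppargc1a*, the coactivator of mitochondrial biogenesis, at 0.58 (SE 0.24). The 3 genes with a lower mean were *Prdm16* at -0.14 (SE 0.17), *Fabp3* at -0.13 (SE 0.094) and *Esrrg* at -0.10 (SE 0.10). The mean of the list was 7.41 to 8.48 in WT and 7.81 to 9.02 in R6/2 mice, so the genotypes overlapped. In whole tissue, more thermogenic adipocytes and more RNA per cell cannot be told apart.

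*Ucp1*, the uncoupling protein of brown and beige adipocytes, had a lowest, median and highest signal of 8.70, 9.92 and 11.62 in WT mice and of 8.44, 11.91 and 12.61 in R6/2 mice. Its mean was 9.97 ± 1.15 in WT and 11.47 ± 1.58 in R6/2 mice (SD, n = 6), with a difference of 1.50 (SE 0.72, limma adjusted p = 0.852). The exact permutation test, two-sided, gave p = 0.0952. With a list mean as a covariate its difference was 1.51 (SE 0.70) for lymphocytes, 1.52 (SE 0.78) for epithelium and 1.03 (SE 0.65) for muscle. It was 0.75 (SE 0.83) for macrophages, 1.00 (SE 0.63) for synthesis and 0.27 (SE 0.40) for the thermogenic genes, which include *Ucp1*. R6/2 mouse 4 held the lowest *Ucp1* signal of its genotype and also the lowest *Elovl3* signal, at 7.15. Over the 12 arrays *Ucp1* and *Elovl3* correlated at r = 0.920 (0.899 after removing the genotype means), which placed *Ucp1* at rank 45 of 14549 genes by likeness to *Elovl3*.

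**Figure D2:**
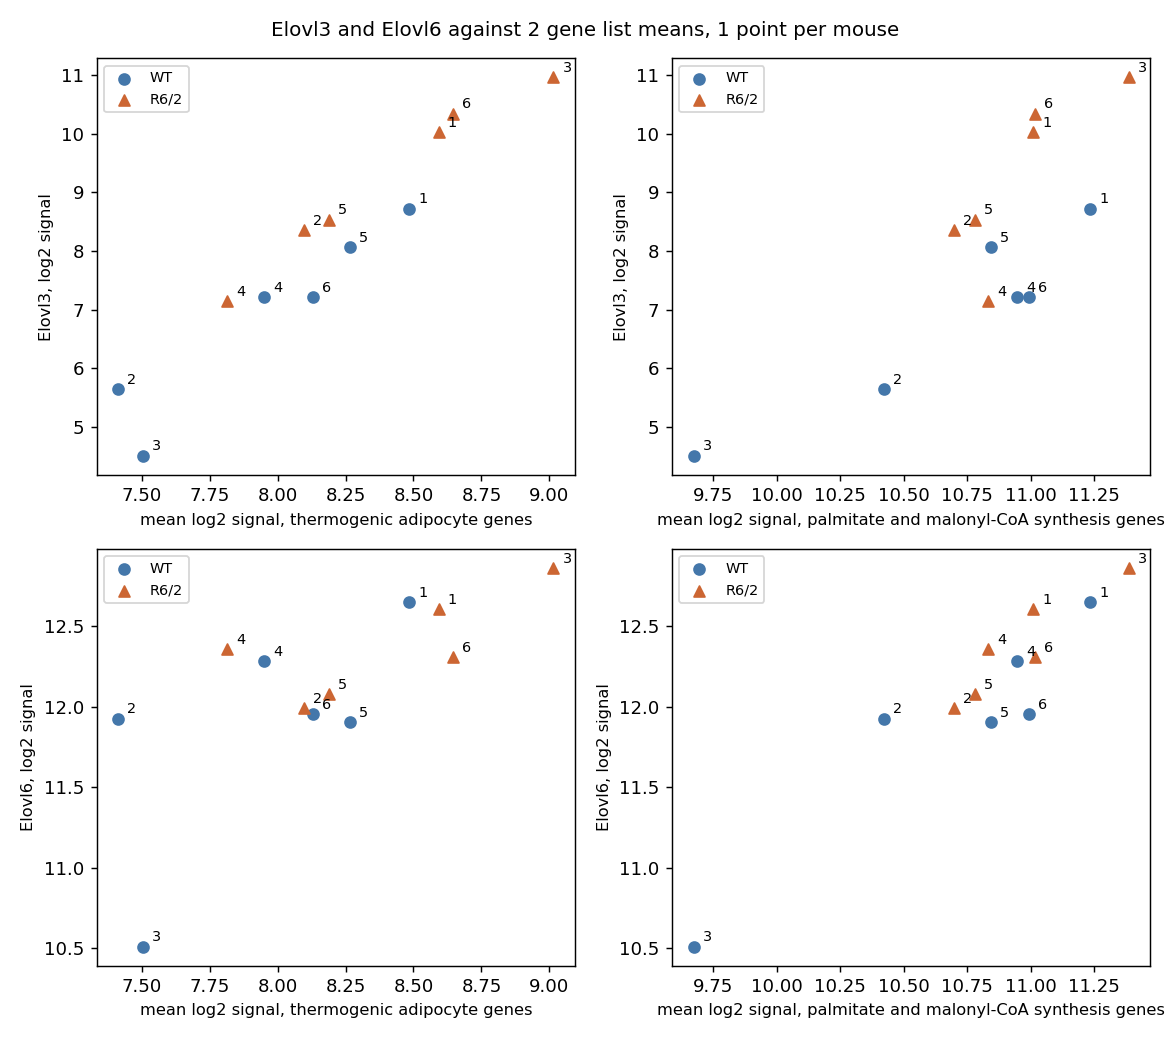
Log2 signal of *Elovl3* (top) and *Elovl6* (bottom) against the mean log2 signal of a gene list. The lists are 17 thermogenic adipocyte genes (left) and 10 genes listed for palmitate and malonyl-CoA synthesis (right). Each point is 1 mouse with its replicate number, WT as circles and R6/2 as triangles. *Elovl3* lies closest to a line with the thermogenic mean (r = 0.957) and *Elovl6* with the synthesis mean (r = 0.941), where WT mouse 3 stands far below the others.

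The genes most like *Elovl3* over the 12 arrays encode core mitochondrial enzymes. *Atp5a1*, the alpha subunit of ATP synthase, correlated at r = 0.978, *Ogdh*, the oxoglutarate dehydrogenase of the citric acid cycle, at 0.972, and *Sdha*, the catalytic subunit of succinate dehydrogenase, at 0.960. After removing the genotype means these values were 0.974, 0.976 and 0.957. The 3 genes moved over a narrower range than *Elovl3*, with genotype differences of 0.28 (SE 0.13), 0.31 (SE 0.15) and 0.36 (SE 0.17) on the log2 scale, and none passed the adjusted p in limma. These correlations share the 12 libraries and were picked as the highest of all genes, so they are descriptions only. The part of muscle RNA in them was not tested.

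**Figure D3:**
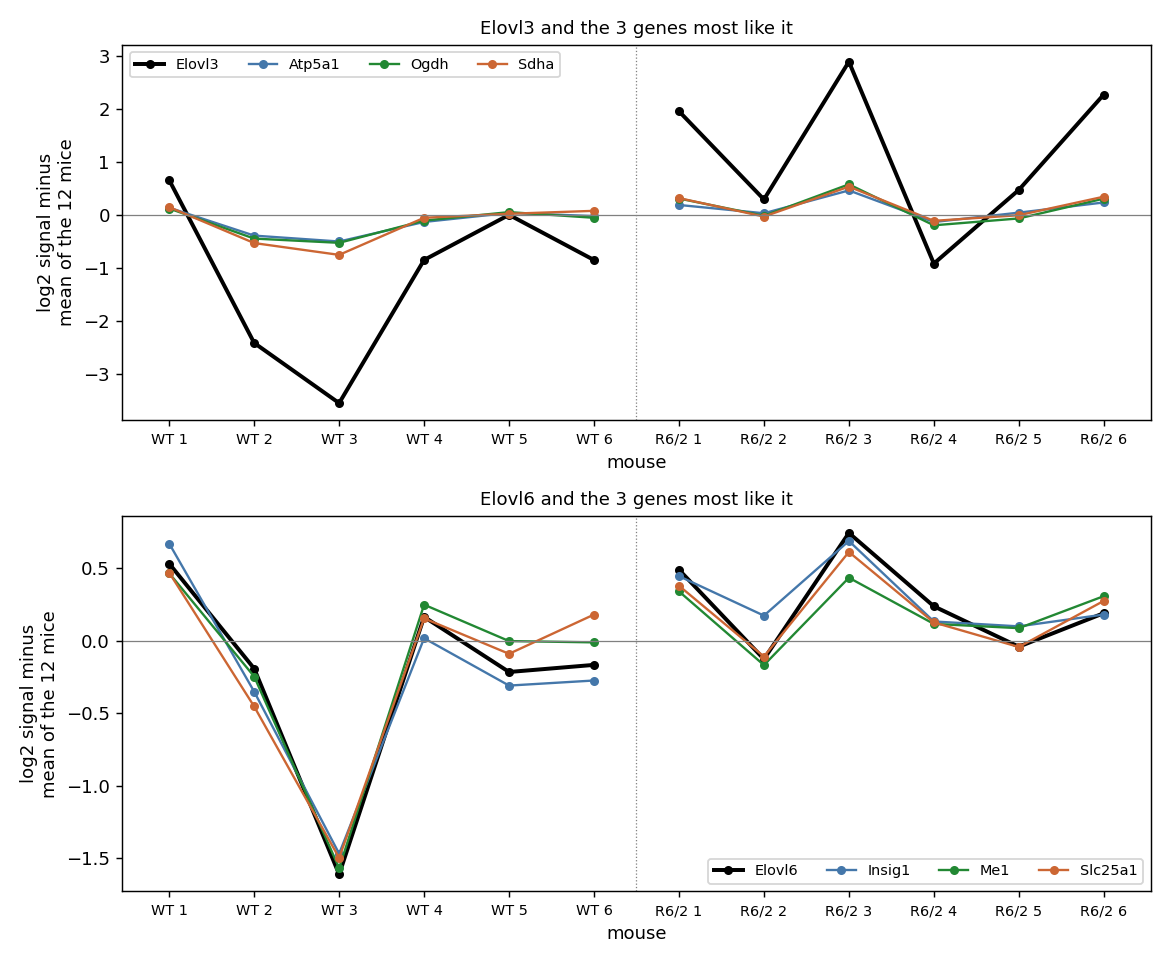
Log2 signal minus the mean of the 12 mice (vertical axis) for *Elovl3* with *Atp5a1*, *Ogdh* and *Sdha* (top) and for *Elovl6* with *Insig1*, *Me1* and *Slc25a1* (bottom), by mouse. Lines join values of a gene to guide the eye, since mice have no order. *Elovl3* follows the same peaks as its 3 genes over a wider range, and *Elovl6* and its 3 genes share a low point in WT mouse 3.

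Other tissue in the samples moved with *Elovl3* to different degrees. With the lymphocyte mean as a covariate the genotype difference of *Elovl3* was 2.32 (SE 0.76), with the epithelial mean 2.08 (SE 0.82), with the muscle mean 1.70 (SE 0.62) and with the macrophage mean 1.23 (SE 0.83). With the thermogenic mean as a covariate, an addition made after the data were seen, it was 0.87 (SE 0.25). No adjusted p in limma passed the threshold in any of these fits. All 16 macrophage genes measured had a lower mean in R6/2 mice, with a median difference of -0.53, and without R6/2 mouse 3 the count was 15 and the median -0.33. Of these, 5 had an unadjusted p under 0.05 and SAM called 2, *Itgam* at -0.81 (SE 0.21) and *Cd68* at -0.999 (SE 0.31), while limma called none after adjustment. Over all genes the shares were 5.84% at the unadjusted p and 0.584% in SAM. The macrophage mean was 7.74 to 8.69 in WT and 7.12 to 8.40 in R6/2 mice. The part of macrophage content in the *Elovl3* difference was not tested beyond this covariate.

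All 18 skeletal muscle genes had a higher mean in R6/2 mice, with a median difference of 0.99 and none past the adjusted p in limma. The median was 0.44 when R6/2 mouse 3 was left out, 0.56 when R6/2 mouse 6 was, and 1.60 when WT mouse 5 was. *Elovl3* had a mean of 9.11 in the 7 mice of higher muscle mean and of 6.59 in the 5 mice of lower muscle mean, which were mostly WT. Among the former, the 5 R6/2 mice exceeded the 2 WT mice by 1.01 in the mean, and among the latter the single R6/2 mouse exceeded the 4 WT mice by 2.21, values given without a test. The same differences were 0.24 and 2.07 for *Ucp1*, 0.17 and 0.32 for *Elovl6* and -0.063 and -0.11 for *Elovl1*. Muscle content and genotype were thus partly confounded, and the part of muscle content in these differences was not tested further. Since the mice fell into separate clusters of muscle signal, the relation with *Elovl3* was taken over the 7 mice of the upper cluster only. There r was 0.378 and rho 0.393 (permutation tests, adjusted p = 0.572 and 0.593). Leaving out the 2 mice farthest from the median there, R6/2 mice 1 and 3, gave r = 0.562. These values leave out the difference between the clusters. The gap between them was 26.1% of the range of the muscle mean. Gaps in the thermogenic and synthesis means, 23.0% and 43.7% of their ranges, set 1 mouse apart each, and their relations used all mice. The muscle relation therefore cannot be ranked against those, and over all mice it was not tested. Of the sebaceous gland list, the other known site of *Elovl3*, the defining markers *Awat1*, *Awat2* and *Dgat2l6* did not pass the level filter. The 4 genes that did, led by *Krt79* at -0.29 (SE 0.16) and *Mc5r* at -0.46 (SE 0.29), had a median difference of -0.26, and their mean was 6.07 to 6.68 in WT and 5.92 to 6.36 in R6/2 mice. Other cell types had no gene past the adjusted p in limma either. Of the mature adipocyte genes, 14 of 18 had a lower mean in R6/2 mice, with a median difference of -0.10. SAM called 1 of them, *Lep*, which encodes leptin, at -1.26 (SE 0.35), against 0.584% of all genes. The lymphocyte and lymph node genes were split into 8 higher and 5 lower with a median of 0.08, which ran from -0.50 without WT mouse 4 to 0.58 without R6/2 mouse 4, the epithelial ones into 3 and 3 with 0.01, the endothelial ones into 3 and 7 with -0.06 and the Schwann cell ones into 1 and 3 with -0.06.

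*Elovl6*, the elongase that makes stearate from palmitate, had a lowest, median and highest signal of 10.51, 11.94 and 12.65 in WT mice and of 11.99, 12.33 and 12.86 in R6/2 mice. The groups overlapped, with 4 WT mice below every R6/2 mouse, and WT mouse 3, at 10.51, stood apart from the next WT mouse, at 11.90. The means were 11.87 ± 0.73 in WT and 12.37 ± 0.33 in R6/2 mice (SD, n = 6), with a difference of 0.50 (SE 0.30, 95% confidence interval -0.15 to 1.14). The limma adjusted p was 0.874, the SAM q was 61.3% and the exact permutation p, two-sided, was 0.132. Without WT mouse 3 the difference was 0.22 (SE 0.18) and the exact permutation p was 0.268, and without WT mouse 1 they were 0.65 (SE 0.29) and 0.0216. The SD in WT mice was 2.23 times that in R6/2 mice. With a list mean as a covariate the difference was 0.49 for lymphocytes, 0.35 for muscle, 0.29 for epithelium and 0.19 for macrophages. It was 0.17 for palmitate and malonyl-CoA synthesis and 0.14 for thermogenic genes.

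*Elovl6* moved across mice with the genes listed for the synthesis of palmitate and malonyl-CoA, the substrates of elongation. Against the mean of 10 such genes, r was 0.941 (permutation p = 0.00011, adjusted p = 0.000825) and rho 0.783 (permutation p = 0.00381, adjusted p = 0.0191). Within WT mice r was 0.943 and within R6/2 mice 0.924. Without WT mouse 3 and R6/2 mouse 3, the mice farthest from the median of this mean, r was 0.698 and its adjusted p 0.106, so the strength of the relation rests on those mice. WT mouse 3 had the lowest synthesis mean of all, 9.67, against 10.42 to 11.39 in the other 11 mice. It was also lowest of all mice in the mature adipocyte mean, 10.68, against 10.78 to 11.60 in the other 11. The same mouse was lowest in the means of elongation partners, desaturases, lipogenic regulators and peroxisomal genes. The mature adipocyte mean was not used as a covariate, so the part of adipocyte content in the relation was not tested.

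Of the 3 genes most like *Elovl6*, *Me1* and *Slc25a1* belong to the synthesis list itself, so their likeness adds no separate evidence. *Insig1*, which holds the SREBP precursors in the endoplasmic reticulum and is itself an SREBP target, correlated at r = 0.970, *Me1*, the cytosolic malic enzyme that supplies NADPH, at 0.969, and *Slc25a1*, the mitochondrial citrate carrier, at 0.966. After removing the genotype means the values were 0.967, 0.968 and 0.960. *Insig1* had a lowest, median and highest signal of 9.79, 10.96 and 11.92 in WT and of 11.35, 11.43 and 11.94 in R6/2 mice. As in *Elovl6*, its lowest value was that of WT mouse 3, which was also lowest in *Me1* and *Slc25a1*. The correlations with *Elovl6* were picked as the highest of all genes, so they are descriptions only.

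Upstream of the elongases, all 10 genes listed for palmitate and malonyl-CoA synthesis had a higher mean in R6/2 mice, with a median difference of 0.27. None passed the adjusted p and none had an unadjusted p under 0.05. The list also holds *Mlycd*, a malonyl-CoA decarboxylase and thus not a gene of synthesis, at 0.12 (SE 0.15). *Fasn*, fatty acid synthase, differed by 0.27 (SE 0.16), *Slc25a1* by 0.41 (SE 0.28), *Me1* by 0.37 (SE 0.28) and *Acss2*, an acetyl-CoA synthetase, by 0.37 (SE 0.36). These values rested in part on WT mouse 3, which held the lowest synthesis mean. Without it the median difference was 0.093, with 8 genes higher and *Acly* and *Thrsp* lower in R6/2 mice, and without WT mouse 1 the median was 0.41. Among 8 lipogenic regulators, 7 had a higher mean in R6/2 mice and 0 passed, with a median difference of 0.06, and 4 were higher without R6/2 mouse 3. *Insig1* led at 0.57 (SE 0.27), whereas *Srebf1*, the SREBP that drives fatty acid synthesis, differed by 0.07 (SE 0.21) and *Mlxipl*, the carbohydrate response factor ChREBP, by 0.06 (SE 0.33).

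The elongases also correlated with each other and with the list of the other. *Elovl3* and *Elovl6* correlated at r = 0.795 (0.748 after removing the genotype means). *Elovl3* against the synthesis mean gave r = 0.823 (permutation test, adjusted p = 0.0026), which was 0.608 without WT mouse 3 and R6/2 mouse 3 (adjusted p = 0.224). *Elovl6* against the thermogenic mean gave r = 0.709 (permutation test, adjusted p = 0.0211), rho 0.636 (adjusted p = 0.0909) and r = 0.727 without R6/2 mouse 3 and WT mouse 2 (adjusted p = 0.105). The order of mice was not the same in both, since R6/2 mouse 4 was lowest of its genotype in *Elovl3*, at 7.15, but not in *Elovl6*, at 12.36.

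*Elovl1*, which lengthens saturated and monounsaturated chains for sphingolipids, had a lowest, median and highest signal of 7.66, 8.01 and 8.16 in WT mice and of 7.65, 7.78 and 7.94 in R6/2 mice. WT mice 1, 2, 3 and 4 lay above every R6/2 mouse, and WT mouse 5 lay near the bottom of the R6/2 range. The means were 7.97 ± 0.17 in WT and 7.78 ± 0.12 in R6/2 mice (SD, n = 6), a difference of -0.19 (SE 0.090, 95% confidence interval -0.38 to 0.01, limma adjusted p = 0.852). The exact permutation p, two-sided, was 0.0563, and it was 0.00866 without WT mouse 5 and 0.0390 without R6/2 mouse 2. With a list mean as a covariate the difference was -0.19 for lymphocytes, -0.15 for epithelium, -0.14 for synthesis and -0.13 for muscle. It was -0.09 for thermogenic genes and -0.07 (SE 0.098) for macrophages. *Elovl1* ran against *Elovl3* over the 12 arrays (r = -0.754) and against the thermogenic mean (r = -0.752, permutation test, adjusted p = 0.0188), the latter reaching only -0.579 without R6/2 mouse 3 and WT mouse 2 (adjusted p = 0.243). The genes most like *Elovl1* were *Sapcd2* (r = 0.896), *Synj1* (0.862), a phosphoinositide phosphatase, and *Arhgap6* (0.855).

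Some ceramide synthases use the acyl chains that ELOVL1 makes, and the list was not limited to these. Of the 9 ceramide synthesis genes measured, 6 had a lower mean in R6/2 mice and 3 a higher one, with a median difference of -0.09 and none past the adjusted p in limma. *Cers4* differed by -0.24 (SE 0.093, limma unadjusted p = 0.0238, adjusted p = 0.803). *Cers2*, the synthase of very long chain ceramides, differed by -0.17 (SE 0.092) and *Cers5* by -0.13 (SE 0.073).

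*Elovl5*, which lengthens polyunsaturated chains, held a narrow range in WT mice, with a lowest, median and highest signal of 10.22, 10.34 and 10.49. In R6/2 mice these were 10.16, 10.34 and 10.87, and R6/2 mice 3 and 4, at 10.87 and 10.65, lay above every WT mouse. The means were 10.35 ± 0.095 and 10.43 ± 0.27 (SD, n = 6), with a difference of 0.08 (SE 0.12, 95% confidence interval -0.17 to 0.34, limma adjusted p = 0.960, exact permutation p = 0.506, two-sided). R6/2 mice 3 and 4 were also those at the floor of the lymphocyte mean, as was WT mouse 4, the highest WT mouse in *Elovl5* at 10.49. With the lymphocyte mean as a covariate the genotype difference was still 0.08, with an SE of 0.072. The part of lymph node content in the levels of *Elovl5* was not tested further. The genes most like it were *B430319G15Rik* (r = 0.935), *Plekhb1* (0.928) and *Gm13483* (0.902).

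*Elovl2*, the other elongase of polyunsaturated chains, had a lowest, median and highest signal of 5.87, 6.00 and 6.19 in WT and of 5.72, 5.98 and 6.16 in R6/2 mice. Both genotypes covered nearly the same range, and all 12 arrays were above the level limit. The difference was -0.04 (SE 0.083, 95% confidence interval -0.22 to 0.14, limma adjusted p = 0.977, exact permutation p = 0.602, two-sided). Its most similar genes were *Gucy1a2* (r = 0.917), a subunit of soluble guanylate cyclase, *Shoc2* (0.913), a scaffold of the MAP kinase pathway, and *Heatr5b* (0.911). None of the 5 relations of *Elovl2* and *Elovl5* with the thermogenic and synthesis means, and of *Elovl1* with the synthesis mean, passed an adjusted p of 0.05.

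*Elovl4* and *Elovl7* did not pass the level filter. *Elovl4* had a lowest, median and highest signal of 4.85, 4.93 and 5.24 in WT and of 4.47, 4.98 and 5.72 in R6/2 mice, and R6/2 mouse 3 was the only array above the limit of its genotype, 5.44. *Elovl7*, an elongase of saturated chains, had 4.60, 4.97 and 5.48 in WT and 5.00, 5.15 and 5.27 in R6/2 mice, and WT mouse 3 was the only array above the limit. In a fit without the filter the differences were 0.03 (SE 0.17, limma adjusted p = 0.994) and 0.11 (SE 0.12, limma adjusted p = 0.966). No difference was found in these genes, whose mean signals lay under the limit in both genotypes. Whether a difference could be detected at such signals was not tested.

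The partners of the elongases in the cycle showed no shared direction. Of 6 measured genes, 3 had a higher and 3 a lower mean in R6/2 mice, with a median difference of 0.02 and 0 past the adjusted p or an unadjusted p of 0.05 in limma. *Hsd17b12*, the ketoreductase, differed by 0.43 (SE 0.26) and *Tecr*, the enoyl reductase that closes the cycle, by 0.27 (SE 0.16). The dehydratases went the other way where they differed most, *Hacd4* by -0.52 (SE 0.24) and *Hacd2* by -0.21 (SE 0.17). Each of these 4 had overlapping genotypes. *Hacd4* was above the level limit on 8 of the 12 arrays, so its difference involves signals at the floor.

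Desaturases, which act on the same chains before and after elongation, were split in the same way, 3 higher and 3 lower of 6, with a median difference of 0.00 and none past either threshold, though without WT mouse 1 all 6 were higher. *Scd1*, which desaturates the stearate that ELOVL6 makes, differed by -0.0081 (SE 0.065) with means of 13.46 ± 0.11 in WT and 13.45 ± 0.056 in R6/2 mice (SD, n = 6). Its signals, 13.26 to 13.56, lay close to the highest value of any probe set, 13.9, and whether the probe set was near saturation was not tested. *Scd3* differed by 0.40 (SE 0.30) and was above the level limit on 10 of the 12 arrays. *Fads2*, which with ELOVL5 makes long polyunsaturated chains, differed by 0.16 (SE 0.18), and *Fads1* by -0.06 (SE 0.17).

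**Figure D4:**
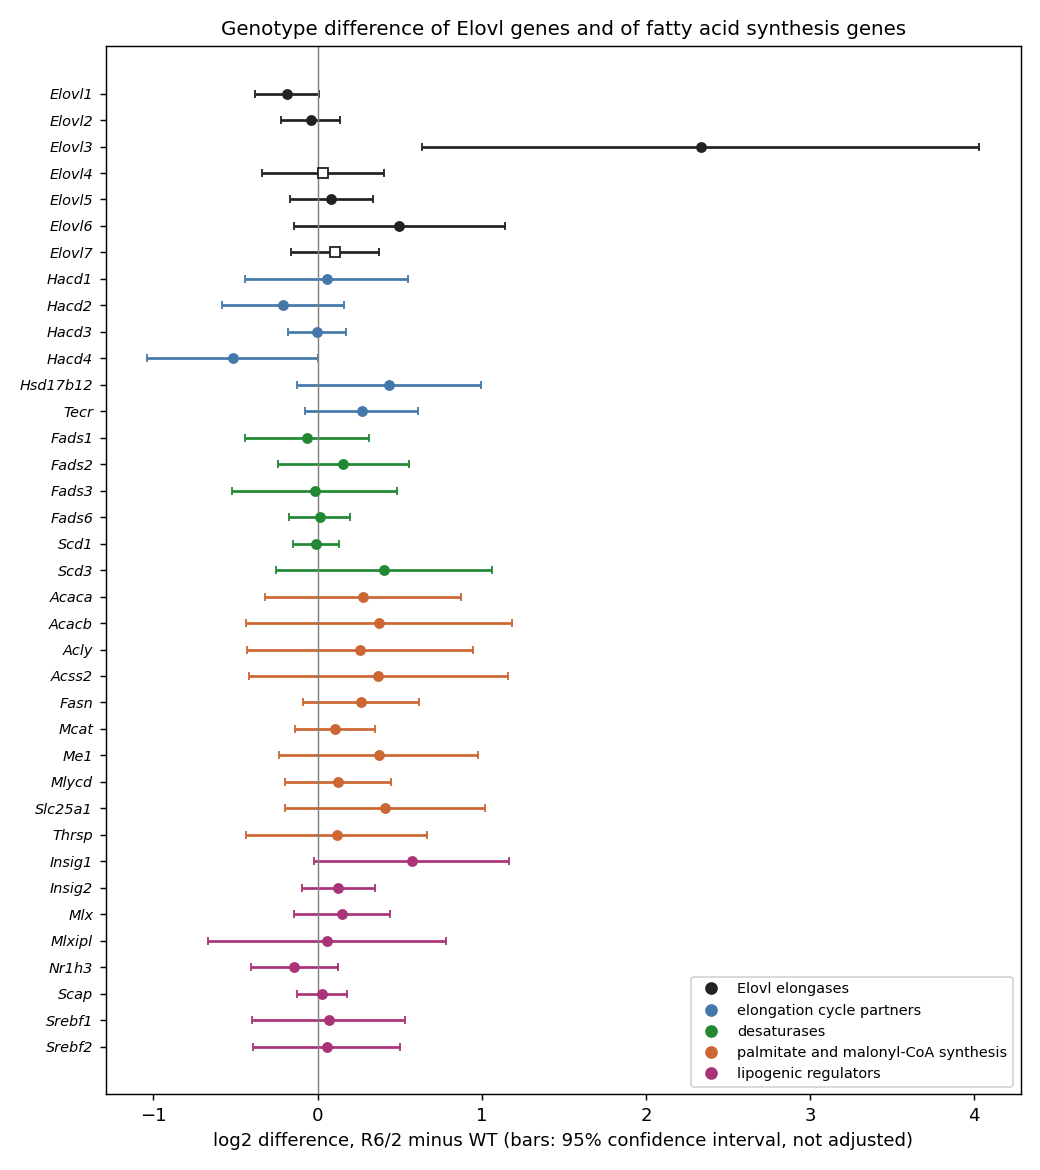
Genotype difference, R6/2 minus WT on the log2 scale (horizontal axis), of the 7 *Elovl* genes and of listed genes that passed the level filter. The lists are those for the elongation cycle, desaturation, palmitate and malonyl-CoA synthesis and lipogenic regulation. Points are limma estimates and bars 95% confidence intervals without adjustment, and open squares mark *Elovl4* and *Elovl7*, which did not pass the filter. *Elovl3* stands at 2.33, whereas the other genes lie between -0.52 and 0.57.

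Acyl-CoA synthetases activate fatty acids before elongation. Of 13 listed, 8 were measured, and 5 had a higher and 3 a lower mean in R6/2 mice, with a median difference of 0.13. None passed the adjusted p in limma, and 3 had an unadjusted p under 0.05, against 5.84% of all genes. *Slc27a2*, a very long chain acyl-CoA synthetase, had a lowest, median and highest signal of 4.34, 5.52 and 6.64 in WT and of 6.07, 6.87 and 8.30 in R6/2 mice. Its difference was 1.51 (SE 0.41), the largest of the list, and 4 R6/2 signals exceeded the highest WT one. WT mice 2, 3 and 4, at 4.76, 5.37 and 4.34, were under the level limit of 5.45, so the difference involves signals at the floor. *Acsl5* differed by 0.64 (SE 0.23) and *Acsl4*, which prefers arachidonate, by 0.20 (SE 0.092), while *Slc27a1* differed by 0.59 (SE 0.36).

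Very long chains are shortened in peroxisomes. Of 14 peroxisomal genes measured, 11 had a higher and 3 a lower mean in R6/2 mice, with a median difference of 0.09. None passed the adjusted p in limma, and 4 had an unadjusted p under 0.05, against 5.84% of all genes. *Hacl1*, the lyase of alpha-oxidation, was 7.58, 8.19 and 8.30 at its lowest, median and highest in WT and 8.33, 8.62 and 9.30 in R6/2 mice, so that its genotypes did not overlap, as was the case in this direction for 0.199% of genes. Its difference was 0.65 (SE 0.18, limma adjusted p = 0.6255). *Ehhadh*, a peroxisomal bifunctional enzyme of beta-oxidation, differed by 0.85 (SE 0.35), *Acaa1b*, a thiolase, by 0.73 (SE 0.32) and *Abcd3*, a transporter of the peroxisomal membrane, by 0.60 (SE 0.22). Without WT mouse 3, 7 of the 14 genes were higher and the median was 0.020, and without R6/2 mouse 3 the values were 8 and 0.030.

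**Figure D5:**
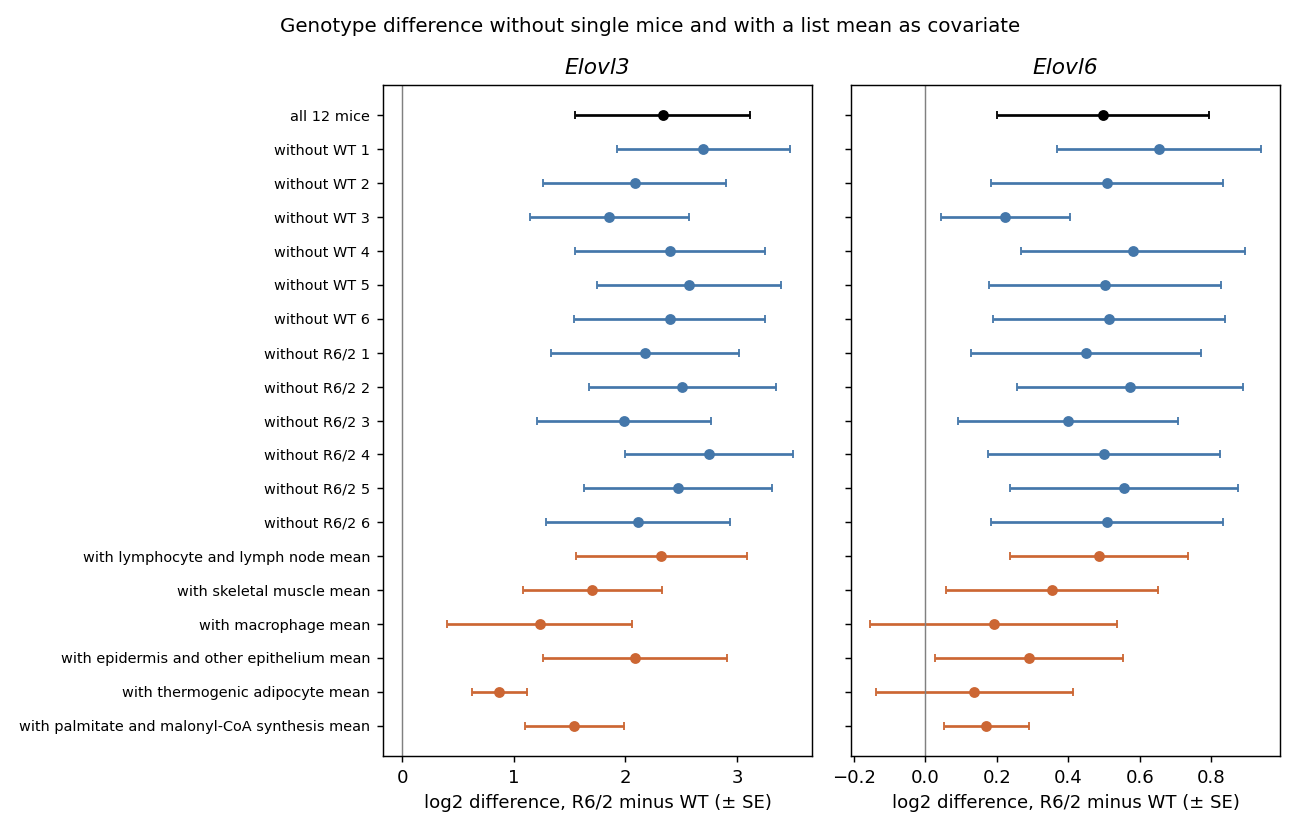
Genotype difference of *Elovl3* (left) and *Elovl6* (right), R6/2 minus WT on the log2 scale with SE bars (horizontal axes), for all 12 mice, without each mouse in turn and with the mean of a gene list as a covariate. *Elovl3* stays above 0 in each, from 0.87 with the thermogenic mean to 2.75 without R6/2 mouse 4, and *Elovl6* lies between 0.14 and 0.65.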

How the data were processed

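The authors selected RNA by its integrity and normalized the 12 arrays in a single run of RMA with Affymetrix Expression Console 1.1.2, as the submitters' processing notes also state. They deposited 1 log2 signal per probe set, unfiltered, from 0.658 to 13.9. The genome build of the probe annotation is not given in the sources used here. Per the platform annotation, 23521 of 41345 probe sets had 1 gene symbol, 1820 had several and 16004 had none. Only the first kind was used. The level filter followed the study's methods, with the median of unnamed probe sets in a genotype (5.45 in WT, 5.44 in R6/2) in place of the negative controls. The methods can be read as asking for a signal above the limit in 1 genotype or in both, and a mean above it in either sufficed here, with both as an alternative. It left 15328 probe sets and 14550 genes. Where a gene had several of them (595 genes), their median in each array was used.

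Genotypes were compared with limma 3.58.1 in R 4.3.3 (lmFit and eBayes, no covariates, Benjamini-Hochberg over all genes, threshold 0.05), and SAM with 100 random label assignments was an alternative. Single genes had exact permutation tests over the mice, whose smallest two-sided p for 6 against 6 is 0.00216. Correlations across mice had permutation tests with 100000 resamples. All p-values measure the spread between these mice, and their number limits the precision. The code was checked on simulated data. The members and the 17 gene lists were chosen with earlier results of these data known. Genes were named by rule: all members, up to 4 genes per list with the smallest limma p and the 3 genes most correlated with each member. *Srebf1*, *Mlxipl*, *Scd1*, *Mlycd*, *Awat1*, *Awat2* and *Dgat2l6* were named for their role outside that rule. *Prdm16*, *Fabp3*, *Esrrg*, *Acly* and *Thrsp* were named for the direction of their difference. Lists cover elongation partners, desaturases, palmitate and malonyl-CoA synthesis, lipogenic regulators, acyl-CoA synthetases, ceramide synthesis, peroxisomal breakdown, and markers of thermogenic and mature adipocytes, lymphocytes, muscle, macrophages, epithelium, sebaceous gland, endothelium, Schwann cells and erythroid cells. None of the erythroid genes had a probe set with a single symbol, so that list gave no value. Promoter windows were read with Python 3.11.15, and plots drawn with matplotlib 3.10.9.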

Additional observations from a re-analysis of the deposited data

Results flagged for a closer look

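Of 28 groups of 6 mice examined for a mouse far from the others (the members, *Ucp1* and 6 list means, in each genotype), 2 had one, and chance gives about 1 in 20. WT mouse 3 stood apart in *Elovl6*, at 10.51 against 11.90 in the next WT mouse. This mouse also held the lowest *Elovl3* signal, 4.51, the lowest mature adipocyte mean, 10.68, and the highest lymphocyte and lymph node mean, 10.38. R6/2 mouse 4 stood apart in *Ucp1*, at 8.44 against 11.41 in the next R6/2 mouse. Its lymphocyte mean was 5.68, and without it the exact permutation p of *Ucp1*, two-sided, was 0.0130 in place of 0.0952.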

How the results depend on the processing

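No setting brought a member past the threshold. The difference of *Elovl3* kept its direction in 30 settings (0.87 to 2.75, adjusted p 0.129 to 0.9999), as did *Elovl6* (0.14 to 0.65) and *Elovl1* (-0.25 to -0.07). *Elovl5* turned to -0.043 with array weights, to -0.048 with the macrophage mean as a covariate and to -0.0025 without R6/2 mouse 3 (range without single mice -0.0025 to 0.14), and *Elovl2* to 0.0075 without R6/2 mouse 2 (range -0.081 to 0.0075). The count of genes called by an adjusted p, 0 in limma, was 46 with array weights, 85 by SAM, 16 with the lymphocyte mean as a covariate and 0 to 23 without single mice, the latter without R6/2 mouse 4 and 1 without WT mouse 1 or 3. The count at an unadjusted p under 0.05, 850, was 2779, 1787, 1722 and 1867 with array weights and with the lymphocyte, epithelial and synthesis means, and 1447 without R6/2 mouse 4. The cause was not tested. The thermogenic and synthesis means as covariates, the values within mice of like muscle mean and the lists without single mice were added after seeing the data. Within the mice of higher muscle mean *Elovl2* turned to 0.017, and within those of lower muscle mean *Elovl5* turned to -0.20.

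The labels do not say whether replicate numbers pair the mice. Deviations of same-numbered mice correlated from -0.785 to 0.776, and only mice 2 and 4 matched their own number best. The mice numbered 4 also shared a low lymphocyte mean, 5.66 in WT and 5.68 in R6/2. Such correlations cannot decide whether mice were paired by litter or processing, and no block was used in the main comparison. With the replicate block 2 genes were called, and the difference of *Elovl3* was 2.33 (limma adjusted p = 0.806).

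Without single mice the exact permutation p, two-sided, ranged from 0.0130 to 0.0563 for *Elovl3*, from 0.00866 to 0.115 for *Elovl1* and from 0.0130 to 0.169 for *Ucp1*, the last under 0.05 without WT mouse 1 (0.0476) or R6/2 mouse 4. Leaving out the 2 mice most distant from the median list mean, r with the thermogenic mean was -0.579 for *Elovl1*, 0.727 for *Elovl6* and -0.195 for *Elovl5*. With the synthesis mean it was 0.608 for *Elovl3*, 0.698 for *Elovl6* and -0.040 for *Elovl5*, and with the muscle mean -0.686 for *Elovl5*, which was 0.298, 0.465 and 0.328 over all mice used.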
